A study of Homo sapiens with 12 samples.

Results

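The 8 genes described here encode inhibitors of cyclin-dependent kinases (CDKs). They are CDKN1A, CDKN1B and CDKN1C of the CIP/KIP family, CDKN2A, CDKN2B, CDKN2C and CDKN2D of the INK4 family, and the phosphatase gene CDKN3. They were taken by gene name from a deposited table of 26475 genes and followed through all 12 RNA-seq libraries of the study. The cells were A375, an established human melanoma line with mutant BRAF. They were treated for 24 h in 4 groups, with 3 biological replicates each per the labels: GSK343+XL413 (1 µM of each compound), GSK343 (1 µM), XL413 (1 µM) and the solvent DMSO. GSK343 inhibits EZH2, the enzyme of Polycomb repressive complex PRC2 that methylates histone H3. XL413 inhibits CDC7, the kinase that activates licensed replication origins. All groups shared the line and its growth medium, and the labels name no other alteration.

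CDKs drive the cell cycle when bound to cyclins, and these inhibitors set how much CDK activity a cell has. The CIP/KIP proteins p21 (CDKN1A), p27 (CDKN1B) and p57 (CDKN1C) bind whole cyclin-CDK complexes, while the INK4 proteins p16 (CDKN2A), p15 (CDKN2B), p18 (CDKN2C) and p19 (CDKN2D) bind CDK4 and CDK6 and keep cyclin D away from them. CDKN3 acts in another way: it removes the activating phosphate from CDK2 and CDK1. CDKN2A, which also encodes p14ARF from another reading frame, is often lost or mutated in melanoma, and A375 is known to carry truncating mutations in it. The INK4 locus and CDKN1C are textbook targets of Polycomb silencing, and p27 is controlled mostly by degradation of the protein, which RNA levels do not show.

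Library totals were 31553205 to 39079931 expected counts, with 18239 to 18551 genes detected. All 8 inhibitor genes passed the filter on low counts and were among the 15443 genes tested. The library of GSK343+XL413 replicate 2 was unlike the rest. Across genes, its deviations from the mean of the other libraries of its group had an SD of 0.245 on the log2 scale, against 0.0743 to 0.152 in the other 11. It had the highest value of its group for 7 of the 8 inhibitor genes, so results for the combination are also given without it where they change. In bulk RNA a smaller number of expressing cells and less RNA per cell cannot be told apart. The melanocytic genes SOX10 and MITF averaged 332 and 42.3 CPM (counts scaled to a common library size with TMM factors), whereas the pigment genes TYR, DCT, MLANA and PMEL were at 0, 0.0775, 0.104 and 0.688 CPM. Among markers of other cells, PTPRC and CD3E did not exceed 0.0875 CPM, and EPCAM and CDH1 did not exceed 0.224 CPM. The summed levels of the 7 epithelial markers, mostly KRT18, were 600 to 662 CPM with GSK343+XL413, 585 to 603 with GSK343, 640 to 671 with XL413 and 652 to 681 with DMSO. The 7 fibroblast markers summed to 218 to 234, 157 to 240, 237 to 283 and 219 to 276 CPM in the same order and the 8 melanocytic markers to 399 to 416, 395 to 427, 422 to 458 and 416 to 447 CPM, whereas the 8 leukocyte markers, mostly CD68, summed to 52.5 to 56.9, 51.3 to 54.0, 49.8 to 51.3 and 47.8 to 51.8 CPM. Their part in the results below was not tested.

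Levels of different genes can be compared only per length, here as CPM per kilobase of the longest annotated transcript. On that scale CDKN1A was the most abundant inhibitor, with a mean of 79.1 ± 2.87 (SD over 12 libraries), above 93.7% of the 14495 tested genes that had a length. CDKN3 followed at 33.7 ± 3.14, then CDKN2C at 22.2 ± 1.75 and CDKN1B at 21.8 ± 0.720. CDKN2D stood at 12.5 ± 0.921, CDKN1C at 9.06 ± 1.55 and CDKN2A at 3.88 ± 0.577. CDKN2B was near the floor of detection at 0.178 ± 0.0367, above only 7.0% of tested genes. The neighbours CDKN2C and CDKN1B were not separated by the spread over libraries, nor were CDKN2D (lowest library 11.04) and CDKN1C (highest library 11.8). Every other step in this order was wider than the libraries' ranges, which do not cover the choice of transcript length. The shortest transcripts of CDKN1B and CDKN2C in the annotation used have 897 and 1220 nt, against 2657 and 2904 nt for the longest. The order and the shares given next rest on the longest ones, and which transcripts were expressed was not tested.

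The sum of the 8 genes per kilobase ranged from 171 to 202 over the 12 libraries, and CDKN1A alone made up 42.4 to 44.4% of it. The share of CDKN1C was 5.10 ± 0.146% with GSK343+XL413, 6.15 ± 0.474% with GSK343, 4.07 ± 0.260% with XL413 and 4.53 ± 0.150% with DMSO (SD, n = 3 each). The share of CDKN3 was 19.5 ± 0.231%, 17.9 ± 0.445%, 19.4 ± 0.395% and 17.1 ± 0.675% in those groups. These 2 genes were the only members that passed the test in any comparison as fitted here.

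**Figure D1:**
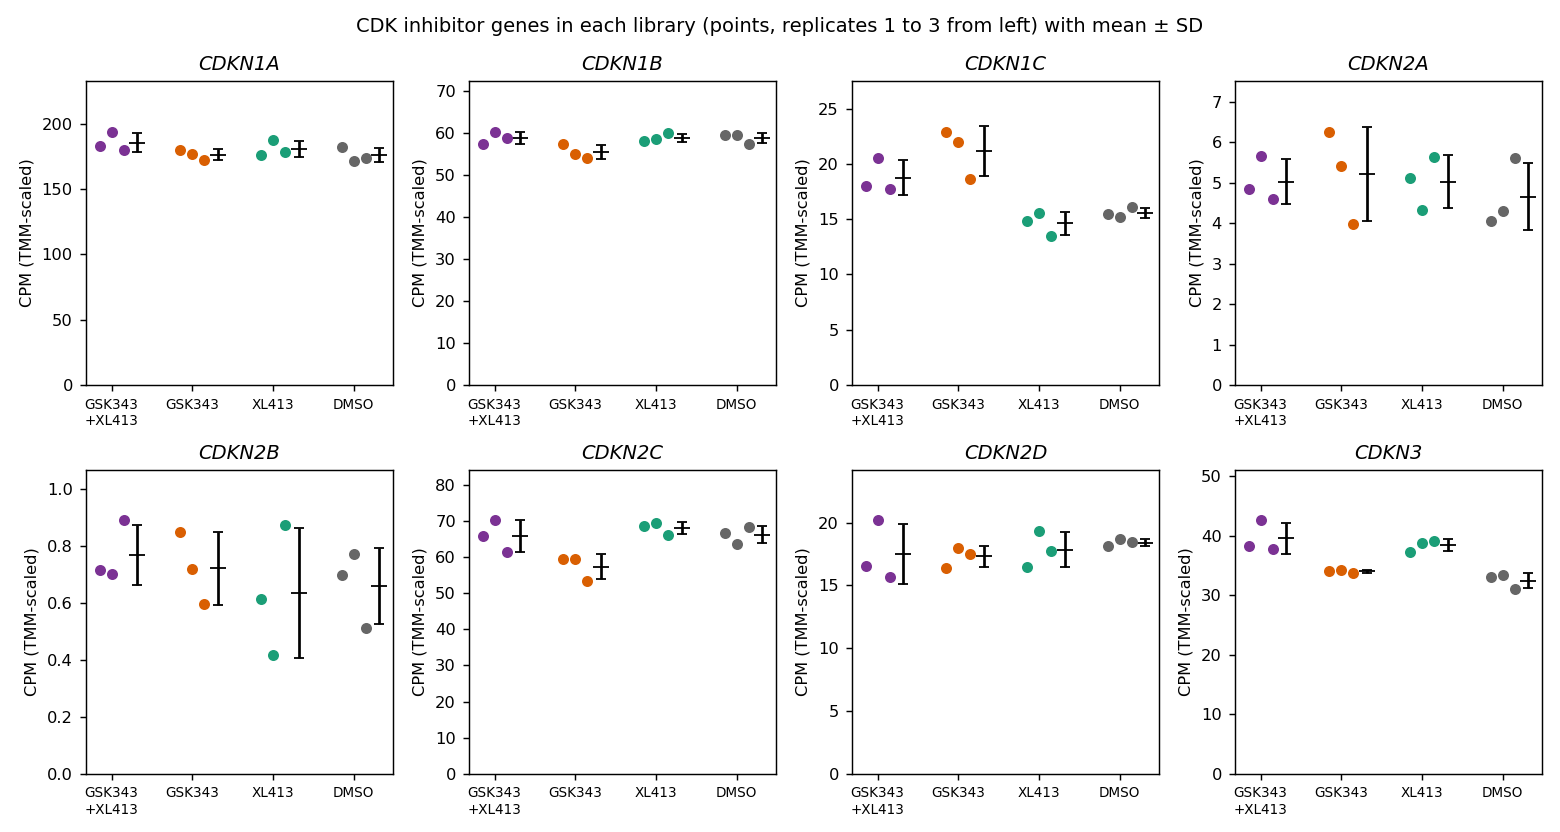
Level of each CDK inhibitor gene in every library, in TMM-scaled CPM on axes that start at 0, with the mean ± SD of 3 libraries beside each group. CDKN1C lies between 18.6 and 22.9 CPM with GSK343, against 15.2 to 16.1 CPM with DMSO, and CDKN3 is higher in both groups that received XL413.

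Differences were tested with edgeR's quasi-likelihood test in 1 fit over all 12 libraries, with p-values adjusted by Benjamini-Hochberg over all tested genes. Genes with an adjusted p below 0.05 count as called. In GSK343 against DMSO 1 of the 8 inhibitor genes was called, CDKN1C, higher, where 1.17% of all tested genes were called and 0.725% were called higher. In GSK343+XL413 against DMSO 1 was called, CDKN3, higher, where 13.9% of all genes were called and 6.69% were called higher. In XL413 against DMSO edgeR called 0 of 8, against 0.427% of all genes, with 1 member and 13.7% of all genes at an unadjusted p under 0.05. There DESeq2 called 1 and limma-voom 0. These 3 comparisons share the DMSO libraries, so they are not independent of each other.

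Setting the combination against each single compound gave no call among the members by edgeR. Against XL413, where 0.784% of genes were called, 1 member and 15% of all genes had an unadjusted p under 0.05, and DESeq2 called 1 and limma-voom 0. Against GSK343, where 0.984% were called, 3 members and 20.4% of all genes had an unadjusted p under 0.05, and DESeq2 called 1 and limma-voom 0. The interaction (the effect of GSK343 in cells with XL413, minus its effect in cells without) was called for 0 members and 0% of all genes by edgeR, with 0 members and 413 genes (2.67%) at an unadjusted p under 0.05. DESeq2 called 2 genes there, none of them a member, and limma-voom called 0.

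Each compound's effect was also averaged over the presence and absence of the other, which sets 6 libraries against 6. For XL413 averaged over both GSK343 states 1 member was called, CDKN3, higher, where 9.12% of genes were called and 4.71% were called higher. For GSK343 averaged over both XL413 states 1 was called, CDKN1C, higher, where 6.55% were called and 3.18% were called higher. The median log2 fold change of the 8 members was 0.04 in both averaged comparisons, beside -0.01 and 0.00 over all tested genes. No comparison had more than 1 called member.

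The libraries of both groups could also be separated without a call. With GSK343 against DMSO, 2 members lay wholly above (CDKN1C and CDKN3) and 3 wholly below (CDKN1B, CDKN2C and CDKN2D), beside 11.2% and 14% of all tested genes. With GSK343+XL413 against DMSO 2 lay wholly above (CDKN1C and CDKN3), beside 16.3% of all genes, and with XL413 1 (CDKN3), beside 11.9%. In the combination 1 member lay wholly above XL413 (CDKN1C), beside 10% of genes, and 3 wholly above GSK343 (CDKN1B, CDKN2C and CDKN3), beside 10.5%. None lay wholly below in these last 4 comparisons. Of 6 libraries against 6, CDKN3 lay wholly above with XL413, beside 2.18% of genes, and CDKN1C with GSK343, beside 1.83%.

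CDKN1A (chromosome 6, 36676460 to 36687339, plus strand, GRCh38, GENCODE 29) encodes p21, which arrests cells in G1 and G2 under stress. Its levels were 182.9, 193.8 and 179.6 CPM with GSK343+XL413, 180.0, 176.7 and 171.8 CPM with GSK343, 175.7, 187.5 and 178.0 CPM with XL413, and 181.8, 171.3 and 173.9 CPM with DMSO. Every treated group overlapped the DMSO libraries. With 5776 to 7470 counts per library, CDKN1A gave narrow intervals: the log2 fold change was 0.08 with GSK343+XL413 (95% interval -0.01 to 0.17, edgeR adjusted p = 0.24), 0.00 with GSK343 (-0.09 to 0.10, 0.983) and 0.04 with XL413 (-0.05 to 0.13, 0.747). The interval for GSK343 thus excludes a change beyond 0.10 in either direction.

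CDKN1B (chromosome 12, 12715058 to 12722371, plus strand) encodes p27, which holds cyclin E-CDK2 and cyclin A-CDK2 inactive in resting cells. Its levels were 57.4, 60.3 and 58.8 CPM with GSK343+XL413, 57.3, 54.9 and 54.1 CPM with GSK343, 58.1, 58.5 and 59.9 CPM with XL413, and 59.5, 59.4 and 57.4 CPM with DMSO. The GSK343 libraries all lay below the DMSO libraries, by a narrow gap, and the other groups overlapped them. The log2 fold change with GSK343 was -0.09 ± 0.0403 (SE), which edgeR did not call (adjusted p = 0.359). With the combination it was 0.00 (95% interval -0.08 to 0.09) and with XL413 0.00 (-0.09 to 0.09). With offsets for GC content and transcript length the GSK343 difference was -0.13 and was called (adjusted p = 0.037).

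Genes of the machinery that degrades the CIP/KIP proteins were called in both directions. SKP2, the F-box protein that marks p27 for degradation, had 62.3 ± 1.15 CPM with GSK343+XL413, 72.0 ± 4.64 with GSK343, 63.5 ± 2.24 with XL413 and 72.0 ± 1.51 with DMSO (SD, n = 3 each). It fell by 0.20 ± 0.0350 (log2, SE) for XL413 averaged over both GSK343 states (edgeR adjusted p = 0.00717) and by 0.21 ± 0.0496 with the combination against DMSO (0.0155). CKS2 and SKP1, the latter a partner of SKP2, rose for XL413 averaged, by 0.23 ± 0.0492 and 0.18 ± 0.0415 (edgeR adjusted p = 0.0143 and 0.0227). DTL, the adaptor that targets p21 in S phase, rose there by 0.16 ± 0.0373 (edgeR adjusted p = 0.0232). Of the 17 genes of this list, 4 rose and 1 fell for XL413 averaged, beside 9.12% of all genes called in either direction. For GSK343 averaged edgeR called 0 of the 17, beside 6.55% of all genes. There 5 fell without GSK343+XL413 replicate 2 and 8 with GC and length offsets, beside 12.9% and 15% of all genes.

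CDKN1C (chromosome 11, 2883213 to 2885773, minus strand) encodes p57, an imprinted inhibitor expressed from the maternal copy and known as a growth suppressor in development. It had 17.98, 20.6 and 17.7 CPM with GSK343+XL413, 22.9, 22.002 and 18.6 CPM with GSK343, 14.8, 15.5 and 13.5 CPM with XL413, and 15.4, 15.2 and 16.1 CPM with DMSO. All 6 libraries that received GSK343 lay above all 6 that did not. GSK343 replicate 3 was the lowest of its group and still above the highest DMSO library.

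CDKN1C rose with GSK343 against DMSO by 0.44 ± 0.0857 on the log2 scale (SE), 1.36-fold (edgeR adjusted p = 0.0248). It rose by 0.40 ± 0.0609, 1.32-fold, for GSK343 averaged over both XL413 states (edgeR adjusted p = 0.00222). With GSK343+XL413 the difference was 0.27 ± 0.0862 from DMSO (adjusted p = 0.0542) and 0.36 ± 0.0866 from XL413 (0.0799), neither of them called by edgeR. The interaction was -0.08 ± 0.122 (95% interval -0.34 to 0.18, edgeR adjusted p = 0.989), so these data do not show whether XL413 altered the response.

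The call for GSK343 against DMSO was lost when any 1 DMSO library was left out (edgeR adjusted p = 0.109, 0.131 and 0.0813 without replicates 1, 2 and 3) and without GSK343 replicate 1 or 2 (0.122 and 0.0955). The log2 fold change stayed between 0.38 and 0.53 over all 12 such fits. The averaged GSK343 effect was called in all 12, with a log2 fold change of 0.37 to 0.44 and a highest adjusted p of 0.0107. In the combination against DMSO CDKN1C passed edgeR's test with upper quartile scaling (0.31, adjusted p = 0.0379), with a filter of at least 5 CPM (0.28, 0.0374), with the replicate block (0.27, 0.0436), with GC and length offsets (0.22, 0.0183), and without GSK343 replicate 3 or GSK343+XL413 replicate 3 (0.26 and 0.31, 0.0315 and 0.0454), and it passed DESeq2's test (0.27, 0.0396). Against XL413 it passed with the offsets (0.35, 0.00666) and by DESeq2 (0.36, 0.0196).

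For XL413 averaged over both GSK343 states CDKN1C measured -0.13 ± 0.0609 (95% interval from -0.26 to just below 0), which edgeR did not call (adjusted p = 0.18). With GC and length offsets it was called lower there (-0.19, edgeR adjusted p = 0.00906) and in the combination against GSK343 (-0.24, 0.0331).

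CDKN1C lies in an imprinted cluster whose long noncoding RNA KCNQ1OT1 silences neighbouring genes on the paternal chromosome. KCNQ1OT1 had 4.12, 2.72 and 5.10 CPM with GSK343+XL413, 5.47, 5.69 and 6.50 CPM with GSK343, 4.81, 3.82 and 4.44 CPM with XL413, and 4.39, 5.07 and 3.91 CPM with DMSO. The GSK343 libraries lay above the DMSO libraries, but the log2 fold change of 0.40 ± 0.181 was not called by edgeR (adjusted p = 0.328). Host gene KCNQ1 had 0 to 3 counts per library and was not tested. Among the nearby genes, SLC22A18 rose with the combination by 0.38 ± 0.111 (edgeR adjusted p = 0.0386) and measured 0.24 ± 0.112 with GSK343 (0.358). Its call with the combination was lost without GSK343+XL413 replicate 2 (0.37, edgeR adjusted p = 0.0656) and with GC and length offsets (0.31, 0.0799). CARS fell for GSK343 averaged by 0.19 ± 0.0363 (0.00851), PHLDA2 measured 0.01 ± 0.101 there (0.956), and NAP1L4 -0.01 ± 0.0267 (0.84). Of 12 tested neighbours of CDKN1C and of the INK4 genes, 1 fell and none rose for GSK343 averaged, beside 6.55% of all genes called. The list's share was thus near that of genes in general.

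**Figure D2:**
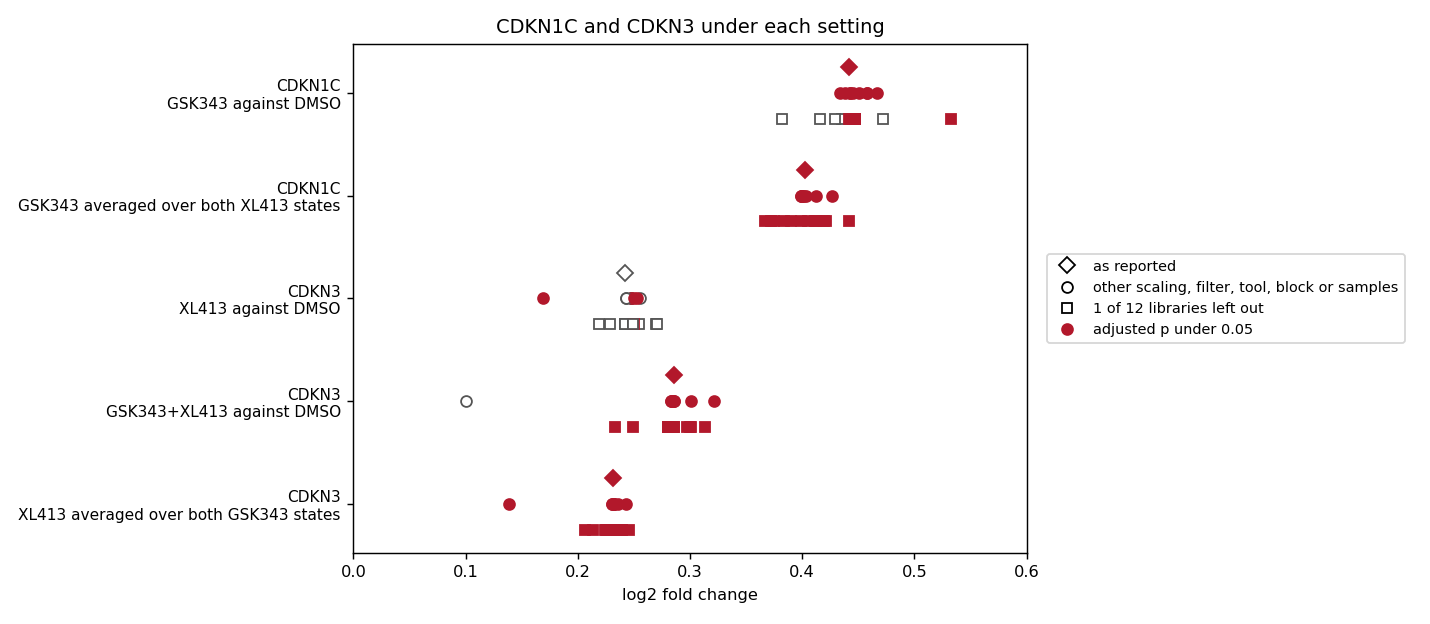
Log2 fold change of CDKN1C and CDKN3 as reported (diamonds), under other scalings, filters, tools, samples or offsets (circles) and with each of the 12 libraries left out (squares), with red where the adjusted p was under 0.05. CDKN1C stays between 0.38 and 0.53 for GSK343 against DMSO, and the lone low circle of CDKN3 in the combination, at 0.10, is the fit with GC and length offsets.

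Among 22 transcription factors known to act on CIP/KIP genes, FOXO1, which activates CDKN1B and CDKN1A, rose for GSK343 averaged by 0.27 ± 0.0667 (edgeR adjusted p = 0.0329). KLF6, an activator of CDKN1A, rose in the same comparison by 0.15 ± 0.0323 (0.0163) and fell for XL413 averaged by 0.14 ± 0.0323 (0.0196). TFAP4, a repressor of CDKN1A, fell with XL413 by 0.25 ± 0.0479 (0.042) and with GSK343+XL413 by 0.28 ± 0.0479 (0.00329). KLF4, another activator of CDKN1A, rose with the combination by 0.28 ± 0.0683 (0.0184). The XL413 call of TFAP4 was lost with upper quartile scaling (-0.24, edgeR adjusted p = 0.065). In all, 2 of the 22 rose and 2 fell with GSK343+XL413 against DMSO, where 13.9% of all genes were called, so the list's share was near that of genes in general. For GSK343 averaged 2 rose and none fell, beside 6.55% of all genes.

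The INK4 genes showed no call in any comparison by edgeR as first fitted, and CDKN2C was called under some other settings given below. CDKN2A and CDKN2B lie side by side on chromosome 9 (21967753 to 21995301 and 22002903 to 22009363, both minus strand), the region that Polycomb complexes silence in dividing cells. CDKN2A had 4.84, 5.65 and 4.58 CPM with GSK343+XL413, 6.26, 5.41 and 3.97 CPM with GSK343, 5.10, 4.33 and 5.63 CPM with XL413, and 4.06, 4.30 and 5.60 CPM with DMSO. The groups overlapped throughout. Its log2 fold change with GSK343 was 0.16 ± 0.172 (95% interval -0.21 to 0.53, edgeR adjusted p = 0.746), so a rise as large as that of CDKN1C lies within the interval. The gene-level count adds the p16 and p14ARF transcripts, which start at different promoters, and these were not separated here.

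CDKN2B had 13 to 31 counts per library, or 0.713, 0.700 and 0.888 CPM with GSK343+XL413, 0.847, 0.719 and 0.594 CPM with GSK343, 0.612, 0.417 and 0.872 CPM with XL413, and 0.697, 0.771 and 0.512 CPM with DMSO. The groups overlapped, and the 95% interval of the fold with GSK343 against DMSO was 0.712 to 1.66. A change of the size seen for CDKN1C was not detectable for p15 at this depth.

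The flanking genes mark what else was transcribed around this locus. MTAP, the metabolic gene next to CDKN2A that melanomas often lose together with it, was expressed at 256 to 274 CPM in every library and measured 0.00 ± 0.0360 with GSK343 (edgeR adjusted p = 0.995). The antisense RNA CDKN2B-AS1, also called ANRIL, had 0 to 3 counts per library and was not tested. It overlaps both INK4 genes on the opposite strand, and the strand setting of the counting is not given in the sources used here.

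CDKN2C (chromosome 1, 50960745 to 50974633, plus strand) encodes p18, an E2F-responsive inhibitor of CDK6. It had 65.8, 70.2 and 61.5 CPM with GSK343+XL413, 59.4, 59.5 and 53.4 CPM with GSK343, 68.7, 69.4 and 66.1 CPM with XL413, and 66.6, 63.6 and 68.3 CPM with DMSO. The GSK343 libraries were below every library of the other groups, and the combination overlapped both XL413 and DMSO. The difference with GSK343 was -0.21 ± 0.0576 from DMSO (edgeR adjusted p = 0.114), and that of the combination from GSK343 was 0.20 ± 0.0575 (0.107). CDKN2C also measured -0.13 ± 0.0406 for GSK343 averaged (0.0807) and 0.12 ± 0.0406 for XL413 averaged (0.0794). None of these 4 differences was called by edgeR as first fitted.

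All 4 were called under some other setting. Without GSK343+XL413 replicate 2, a library outside the pair compared, the difference with GSK343 against DMSO was -0.20 and was called (edgeR adjusted p = 0.0204), and with GC and length offsets it was -0.20 and called (0.0303). For GSK343 averaged CDKN2C was called without that library (-0.15, edgeR adjusted p = 0.0109), with the offsets (-0.12, 0.0356) and by DESeq2 (-0.13, 0.0481). For XL413 averaged it was called with the offsets (0.13, edgeR adjusted p = 0.0273) and without GSK343+XL413 replicate 3 (0.14, 0.0358), and in the combination against GSK343 with the offsets (0.21, 0.0344). The interaction of 0.16 ± 0.0812 (95% interval -0.02 to 0.33) had an edgeR adjusted p of 0.989. CDKN2D (chromosome 19, 10566462 to 10569059, minus strand), which encodes p19, had 16.6, 20.2 and 15.7 CPM with GSK343+XL413, 16.4, 18.004 and 17.5 CPM with GSK343, 16.5, 19.3 and 17.7 CPM with XL413, and 18.1, 18.7 and 18.5 CPM with DMSO. The GSK343 libraries lay just below the DMSO libraries. Its log2 fold change there was -0.09 ± 0.0875 (edgeR adjusted p = 0.716), and it was not called under any alternative run.

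Regulators of the INK4 locus were called mostly as lower. Of 24 tested genes of this list, 7 fell and 1 rose with GSK343+XL413 against DMSO, where 13.9% of all genes were called, and 4 fell and 1 rose for XL413 averaged, where 9.12% were. With GSK343 or XL413 alone edgeR called 0, in comparisons where 1.17% and 0.427% of all genes were called, and it called 0 in the combination against either compound and in the interaction. Without GSK343+XL413 replicate 2 the counts were 5 lower and 1 higher with the combination, 1 lower and 1 higher with GSK343, and 2 lower and none higher with XL413, beside 15%, 6.15% and 4.85% of all genes. With GC and length offsets they were 8 lower and 1 higher, 3 lower and 1 higher, and none, in the same order. Of all genes 19.8%, 6.42% and 3.76% were called there, so calls became more frequent in general. With upper quartile scaling the combination had 4 lower and 1 higher, beside 13.9% of all genes. The H3K27 demethylase KDM6B, which activates CDKN2A, had 21.6 ± 2.89 CPM with GSK343+XL413, 27.8 ± 0.418 with GSK343, 25.9 ± 3.45 with XL413 and 30.5 ± 1.27 with DMSO, and it fell by 0.50 ± 0.0977 with the combination (edgeR adjusted p = 0.00632). CTCF, ETS1 and the Polycomb component PCGF2 fell there by 0.31 ± 0.0575, 0.26 ± 0.0516 and 0.25 ± 0.0578 (0.00499, 0.00739 and 0.0150). GSK343+XL413 replicate 2 was the lowest library of its group for KDM6B, CTCF, ETS1 and PCGF2. It had 18.3 CPM of KDM6B against 23.4 and 23.1 in replicates 1 and 3, and 88.9 CPM of CTCF against 102 and 107. For ETS1 it had 115 CPM against 133 and 130, and for PCGF2 35.6 against 38.7 and 36.6. Fold changes of these genes without that library are not reported here. EZH2, the target of GSK343, fell with the combination by 0.15 ± 0.0414 (0.0329) and measured -0.13 ± 0.0414 with GSK343 alone (0.162). With upper quartile scaling the combination's EZH2 call was lost (-0.11, edgeR adjusted p = 0.0966). An inhibitor of the enzyme's activity need not alter its RNA, so this is no check of the labels.

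CDKN3 (chromosome 14, 54396849 to 54420218, plus strand) encodes the KAP phosphatase, and its RNA is known to peak in late G2 and mitosis with CDK1 and the B-type cyclins. It had 38.3, 42.6 and 37.8 CPM with GSK343+XL413, 34.1, 34.2 and 33.7 CPM with GSK343, 37.3, 38.8 and 39.1 CPM with XL413, and 33.0, 33.4 and 31.01 CPM with DMSO. All 6 libraries that received XL413 lay above all 6 that did not. The GSK343 libraries lay above the DMSO libraries by less than 1 CPM at the nearest pair.

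CDKN3 rose with GSK343+XL413 against DMSO by 0.29 ± 0.0524 (log2, SE), 1.22-fold (edgeR adjusted p = 0.00480), and for XL413 averaged over both GSK343 states by 0.23 ± 0.0370, 1.17-fold (0.00418). With XL413 against DMSO it measured 0.24 ± 0.0525 (0.0688) and with the combination against GSK343 0.22 ± 0.0521 (0.0627), neither called. The XL413 difference was called without GSK343+XL413 replicate 2 (0.25, edgeR adjusted p = 0.00338) and when only the XL413 and DMSO libraries were fitted (0.25, 0.00382). It was also called with GC and length offsets (0.17, edgeR adjusted p = 0.0383), with the 5 CPM filter (0.25, 0.0452) and by DESeq2 (0.25, adjusted p = 0.0146). The combination's difference from GSK343 was called with that filter (0.22, edgeR adjusted p = 0.0496) and without GSK343+XL413 replicate 3 (0.24, 0.0442). DESeq2 called that difference too (0.22, adjusted p = 0.0213). GSK343 alone gave 0.07 ± 0.0527 (0.634). The interaction was -0.02 ± 0.0740 (95% interval -0.18 to 0.14).

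The CDKN3 differences were smaller with offsets for GC content and transcript length together, and a correction for either alone was not fitted. CDKN3 is short, with a longest annotated transcript of 1070 nt, and across 14495 tested genes Spearman's rho between fold change and transcript length was -0.325 with the combination against DMSO and -0.347 for XL413 averaged. Without GSK343+XL413 replicate 2 these values were -0.111 and -0.192. With GC and length offsets CDKN3 measured 0.10 with the combination (edgeR adjusted p = 0.102), which ends that call, and 0.14 for XL413 averaged (0.00711), which keeps it at a smaller size. Leaving out GSK343+XL413 replicate 2 instead gave 0.23 and 0.21 (edgeR adjusted p = 0.00320 and 0.000594). The longest transcript of CDKN1C has 1936 nt and 63.8% GC. For GSK343 averaged, rho was -0.158 with length and -0.175 with GC content, and for GSK343 against DMSO it was -0.000511 and -0.203. The fold change of CDKN1C for GSK343 averaged with offsets was among the 0.40 to 0.43 found over the 8 other settings.

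Genes of late G2 and mitosis moved unequally in the comparisons where CDKN3 rose. Of 22 such genes, 11 rose and 3 fell for XL413 averaged, where 9.12% of all genes were called, with a median log2 fold change of 0.11 beside -0.01 for all tested genes. HMMR, a spindle and hyaluronan receptor protein, had 107 ± 3.75 CPM with GSK343+XL413, 73.9 ± 3.72 with GSK343, 111 ± 2.60 with XL413 and 74.9 ± 1.17 with DMSO. It rose by 0.55 ± 0.0321 for XL413 averaged (edgeR adjusted p = 3.44e-06). UBE2C, which works with the anaphase-promoting complex to tag mitotic proteins, rose by 0.52 ± 0.0455 (0.000118), CDK1, the kinase of mitotic entry and a substrate of CDKN3, by 0.45 ± 0.0324 (2.32e-05), and the spindle kinase AURKA by 0.23 ± 0.0214 (0.000138).

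CCNB2 and CCNB1, the partners of CDK1, rose by 0.29 ± 0.0313 and 0.16 ± 0.0258 (edgeR adjusted p = 0.000256 and 0.00386). The 3 that fell were CENPE (-0.53), CENPF (-0.38) and MKI67 (-0.53), named after their values were seen, whose transcripts of 8612, 10307 and 12678 nt are the longest of the list. With GC and length offsets 12 rose and 3 fell, and without GSK343+XL413 replicate 2 13 rose and 3 fell, beside 14.7% and 13.8% of all genes. With GSK343+XL413 against DMSO 7 rose and 5 fell, beside 13.9% of all genes. Without GSK343+XL413 replicate 2, TOP2A and BUB1 were also called higher there and AURKB lower, beside 15% of all genes. With the offsets TOP2A and AURKB gained these calls while CCNB1 and AURKA lost theirs, beside 19.8%. With GSK343 averaged 5 fell and none rose, beside 6.55%. That last count became 16 with the offsets and 10 without GSK343+XL413 replicate 2, beside 15% and 12.9%.

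**Figure D3:**
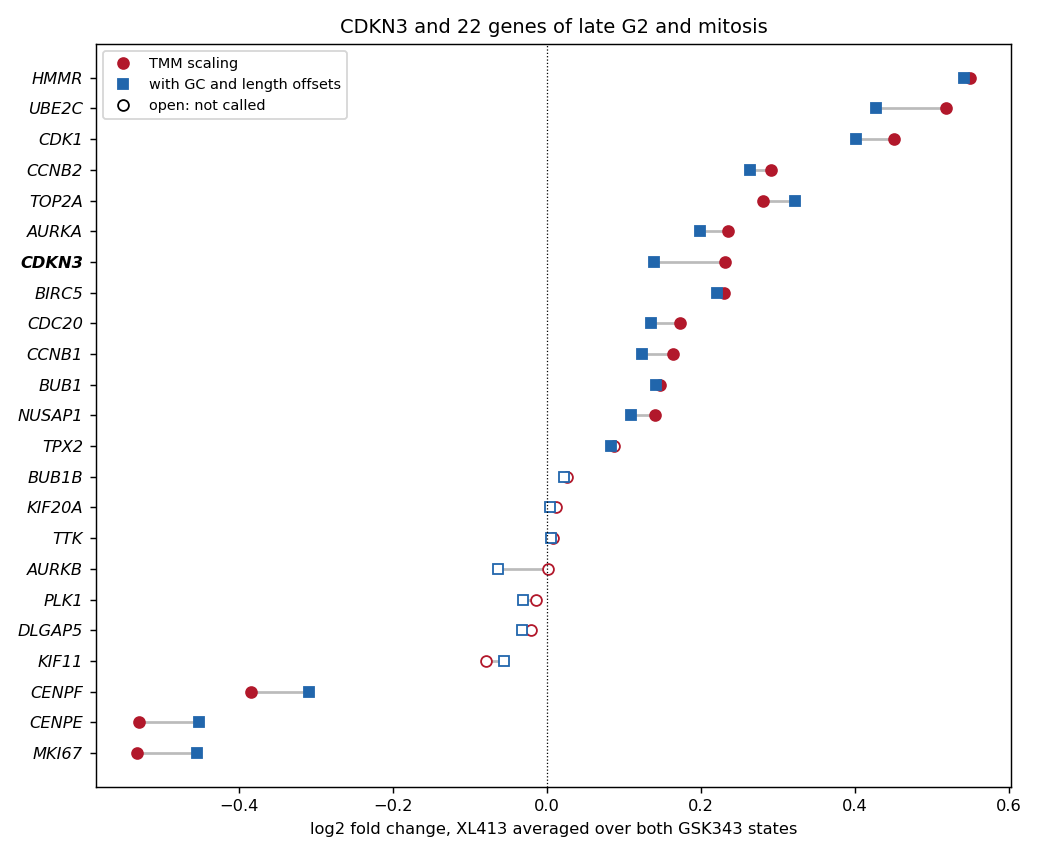
Log2 fold change for XL413 averaged over both GSK343 states of CDKN3 (bold) and 22 genes of late G2 and mitosis, with TMM scaling (circles) and with GC and length offsets (squares), filled where called. CDKN3 stands at 0.23 with TMM scaling and at 0.14 with the offsets, called under both, and HMMR, UBE2C and CDK1 stand highest under both.

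The promoter of CDKN3 is shown because many genes of the G2 and mitosis group share 2 promoter elements, the CCAAT box and the cell cycle genes homology region (CHR), whose letters are TTTGAA. The 250 bases before its RefSeq start site (GRCh38.p14, chr14:54396757-54397006, plus strand) are given with CCAAT, its reverse complement ATTGG and the CHR letters in capitals, the last of these read as TTCAAA because the match is on the opposite strand.
CDKN3: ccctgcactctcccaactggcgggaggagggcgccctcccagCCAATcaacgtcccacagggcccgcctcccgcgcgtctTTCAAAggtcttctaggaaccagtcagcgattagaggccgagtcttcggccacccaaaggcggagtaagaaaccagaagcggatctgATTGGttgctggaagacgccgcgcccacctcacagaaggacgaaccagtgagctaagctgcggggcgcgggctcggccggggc
The CHR letters begin 170 bases before the RefSeq start site and end 7 bases before the GENCODE 29 start of the gene, which lies 158 bases further upstream. The CCAAT letters begin 208 and 83 bases before the RefSeq start.

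On either strand, TTTGAA occurs in 15.2% and CCAAT in 34.6% of all 35116 RefSeq promoters of the same length of 300 bases. Of the other members with a promoter entry, none had TTTGAA, while CDKN1B, CDKN2C and CDKN2D had CCAAT. In the G2 and mitosis list 12 of 17 genes with a promoter entry had TTTGAA, against 18.2% of 27305 genes. A match of letters describes the sequence and is no evidence of binding.

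To show the element side by side, windows of 30 bases with TTTGAA in capitals are given for CDKN3 and for the named cyclin and mitosis genes that have the letters upstream of their start, in each case the match nearest to it.
CDKN3: tcctagaagaccTTTGAAagacgcgcggga
CDK1: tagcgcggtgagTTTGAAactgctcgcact
CCNB2: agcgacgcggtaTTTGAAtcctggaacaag
HMMR: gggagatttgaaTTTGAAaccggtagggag
The CDKN3 window lies on the minus strand at chr14:54396825-54396854. The windows of CDK1 (chr10:60778453-60778482), CCNB2 (chr15:59105105-59105134) and HMMR (chr5:163460598-163460627) lie on the plus strand, with the marked letters 13, 29 and 22 bases before their start sites. The HMMR window holds the same letters again, in lower case, directly before the marked match. These 3 genes and CDKN3 were picked from among called genes, so their rise for XL413 averaged is no evidence about the element. CCNB1, which also rose, gave no such window upstream of its start, and AURKA and UBE2C had no promoter entry.

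The CDKs and cyclins that the inhibitors act on changed in both directions. Of 21 such genes, 6 rose and 3 fell for XL413 averaged, where 9.12% of all genes were called, and 4 rose and 4 fell with GSK343+XL413 against DMSO, where 13.9% were. Cyclin D1 (CCND1), the partner of CDK4 and CDK6 and so the complex that INK4 proteins oppose, fell by 0.22 ± 0.0418 with the combination (edgeR adjusted p = 0.00556). CDK6 fell there by 0.28 ± 0.0802 (0.0337), a call that was lost without GSK343+XL413 replicate 2 (-0.22, edgeR adjusted p = 0.0613), while CDK4 measured 0.02 ± 0.0547 (0.848). Cyclin E2 (CCNE2), a partner of CDK2, fell by 0.16 ± 0.0491 (0.0485), a call lost with upper quartile scaling (-0.12, edgeR adjusted p = 0.127). CCNA1, the germline cyclin A, had 5.95 ± 0.0854 CPM with GSK343+XL413, 8.002 ± 0.953 with GSK343, 4.15 ± 0.572 with XL413 and 4.76 ± 0.373 with DMSO. CCNA1 rose with GSK343 by 0.75 ± 0.115 (0.00792), the same comparison in which CDKN1C rose. CCND1, CDK6, CDK4 and CCNE2 are named for their role and not by the rule.

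Downstream of the CDKs, 0 of 19 genes of the RB and E2F group rose and 3 fell for GSK343 averaged, where 6.55% of all genes were called. MYBL2, the B-MYB factor of the mitotic gene programme, had 175 ± 1.46 CPM with GSK343+XL413, 179.7 ± 5.31 with GSK343, 208 ± 5.25 with XL413 and 208 ± 3.35 with DMSO, and it fell by 0.23 ± 0.0255 (edgeR adjusted p = 0.000241). FOXM1 and E2F1 fell by 0.14 ± 0.0349 and 0.14 ± 0.0385 (0.0362 and 0.0448). RB1, the protein whose phosphorylation the inhibitors prevent, rose for XL413 averaged by 0.15 ± 0.0399 (0.0360). With upper quartile scaling the calls of FOXM1 and E2F1 were lost (-0.11 and -0.12, edgeR adjusted p = 0.0586 and 0.11). That left 1 of the 19 lower for GSK343 averaged, beside 6.27% of all genes. With offsets 4 fell and none rose, and without GSK343+XL413 replicate 2 4 fell and 1 rose, beside 15% and 12.9% of all genes.

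The genes most like each inhibitor gene across the 12 libraries were ranked by Pearson's r of log2 CPM over 12364 genes, as a description in which all points share libraries, depth and scaling. For CDKN3 they were CXCL1 (r = 0.979), CCL2 (0.973) and LETMD1 (0.971), with 0.974, 0.966 and 0.962 over the 11 libraries left without GSK343+XL413 replicate 2. For CDKN1C they were HS1BP3 (0.944), ANXA10 (0.939) and VGF (0.938), with 0.940, 0.933 and 0.940 over 11 libraries. For CDKN2C the highest were SERPINH1 (0.961), PCBP4 (0.961) and IER5 (0.948), and for CDKN1A GALK1 (0.967), SUPT4H1 (0.965) and BOLA3 (0.959). The likeness of CDKN1A fell to 0.938 for GALK1 over 11 libraries. For CDKN1B they were ANXA1 (0.925), ISY1 (0.922) and CDCA5 (0.919), and for CDKN2D PPP4C (0.888), LMAN2 (0.884) and SPSB2 (0.871). Which genes ranked highest depended on GSK343+XL413 replicate 2 for every member but CDKN3. Over 11 libraries CACFD1 (0.965) and ID3 (0.949) came first for CDKN1C, R3HDM4 (0.973) for CDKN2C, DPY30 (0.943) for CDKN1A and XRCC6 (0.942) for CDKN1B. FLYWCH1 came first for CDKN2D with 0.869, against 0.272 over 12 libraries. For the sparsely counted CDKN2A and CDKN2B the highest values, 0.876 for ACOT2 and 0.924 for PPP1R21, are no finding.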

How the data were processed

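Per the labels' protocols, libraries were prepared from poly-A RNA and the strand was marked with dUTP. The deposited values are RSEM expected counts per gene, which the authors made with Bowtie2 2.1.0, RSEM 1.2.15 and the hg38 build, per the submitters' processing notes. Which gene annotation and strand setting were used is not given in the sources used here. A read that fits more than 1 gene is shared out by RSEM's model, so values of overlapping or antisense genes depend on that model, and 10.5 to 11.1% of a library's values were not whole.

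The expected counts were rounded and fitted with edgeR 4.0.16 (R 4.3.3). The low-count filter was filterByExpr (minimum count 10, minimum total 15), which left 15443 of 26475, and libraries were scaled by TMM. One quasi-likelihood fit with a coefficient per group covered all 12 libraries (8 residual degrees of freedom). Tests were two-sided and adjusted over all tested genes, and the steps were tested on simulated data. SEs were computed from the log2 fold change and the square root of its F statistic, as their quotient. Alternatives were DESeq2 1.42.0, limma-voom 3.58.1, RLE scaling, upper quartile scaling, a replicate block, no filter on low counts, a filter of 5 CPM or more in 3 libraries, GC and length offsets, only the 2 groups compared, and each library left out. Lengths, GC content and positions came from GENCODE 29 (GRCh38), with 23872 gene names matched directly and 25 through an older symbol. Promoters came from RefSeq (GRCh38.p14). CDKN1C had no promoter entry.

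The members, the gene lists and the naming rule were chosen with earlier results of these data known. Up to 4 genes per list were named, those with the smallest p among the called. p-values measure the spread between the replicates, and the labels do not say whether these were separate cultures. Some items of the lists are not reported here.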

Additional observations from a re-analysis of the deposited data

How the results depend on the processing

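Of 1312 alternative values for the members, none reversed a called direction. The number of members called moved under these settings. With upper quartile scaling 2 were called in the combination against DMSO, against 1, beside 13.9% of all genes under both. With at least 5 CPM in 3 libraries, which removes CDKN2B, 1 was called with XL413 against DMSO (against 0), 2 with the combination against DMSO and 1 with the combination against GSK343, beside 0.739%, 19.5% and 1.94% of all genes. DESeq2 called 1 with XL413, 2 with the combination, 1 in the combination against XL413, 1 against GSK343 and 2 for GSK343 averaged, beside 1.61%, 15.3%, 1.89%, 3.74% and 8.29% of all genes. With GC and length offsets 1 was called with XL413, 3 with GSK343, 1 and 2 in the combination against XL413 and against GSK343, and 3 for the averaged effects of XL413 and of GSK343, beside 3.76%, 6.42%, 3.11%, 3.71%, 14.7% and 15% of all genes, so calls became more frequent in general. Fitting only the 2 groups compared gave 1 with XL413, beside 9.3%. Apart from the offsets, which change the fold changes by their construction, the cause was not tested. RLE scaling, no filter and limma-voom moved none of these counts. With 1 library left out the counts ranged from 0 to 1 with XL413, 0 to 2 with GSK343, 1 to 2 with the combination, 0 to 0 and 0 to 1 in the combination against XL413 and GSK343, 0 to 0 for the interaction, and 1 to 2 for each averaged effect. The share of all genes called in those fits ranged from 0.102 to 4.85% with XL413, 0.237 to 6.15% with GSK343, 5.44 to 16.7% with the combination, 0.256 to 1.62% and 0.224 to 2.23% in the combination against XL413 and GSK343, and 3.35 to 13.8% and 2.87 to 12.9% for the averaged effects of XL413 and GSK343. The highest shares with either compound alone and for both averaged effects came without GSK343+XL413 replicate 2.

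Whether the replicate numbers pair the libraries could not be told, because no chance level was computed for these counts. Of 18 same-numbered pairs, 6 had a correlation of deviations over 0.1 (range -0.295 to 0.477). Of 12 libraries, 6 were closest to a library of another group with their own number. With the replicate block 2 members were called in the combination against DMSO, against 1, beside 13.4% of all genes, against 13.9%. The count of members moved in no other comparison.

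CDKN2B, with 13 to 31 counts per library, and CDKN2A, with 134 to 218, are limited by depth, with SEs near 0.28 and 0.17 in the comparisons of 3 with 3 libraries. Scalings moved the median of all genes by at most 0.0345.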

Other observations

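Other RNAs near the inhibitor genes were too sparse to test: PANDAR beside CDKN1A and CDKN2A-AS1 each had 0 to 1 counts in every library. At the imprinted cluster on chromosome 11, H19 had 328, 295 and 342 CPM with GSK343+XL413, 357, 243 and 208 CPM with GSK343, 372, 333 and 320.0 CPM with XL413, and 231, 274 and 338 CPM with DMSO. IGF2 had 75.8, 65.4 and 69.3 CPM with GSK343+XL413, 71.2, 47.3 and 51.4 CPM with GSK343, 62.6, 70.9 and 66.9 CPM with XL413, and 58.6, 66.4 and 71.7 CPM with DMSO. Both genes varied widely among replicates, and neither was called in a comparison.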
